A study of Mus musculus with 12 samples.

Results

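Spliced reads were compared between untreated mouse cortical cultures and cultures given DRB for 2 hours at 50 µM, with 2 libraries in each group, 4 of the 12 libraries of the series. The cultures were dissociated neocortical cells of wild type NMRI embryos at E16.5, kept for 14 days. The labels describe no sort, and markers of neurons, glia and vessel wall cells were all read (their levels are given below). Neither group received bicuculline. All junctions in the table entered: 608954 distinct coordinates, of which 416437 carried a read in the cultures. A junction is the pair of splice sites that a read joins when the intron between them has been removed. The junction reads bear on which spliced transcripts last through it and which splice junctions gain or lose against the others of their gene.

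DRB inhibits the kinase of P-TEFb, which frees RNA polymerase II from its pause near the promoter, so that new elongation stops while polymerases already in the gene run on. After the block, a transcript's level falls at the rate of its decay. In neurons, transcripts of transcription factors and signalling regulators are known to turn over fast, and those of metabolic and synaptic proteins slowly. Transcripts with an early stop codon are removed by nonsense-mediated decay (NMD), which needs translation, and many splicing factor genes hold "poison" exons that send part of their output there.

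The control libraries held 49559425 and 54709162 spliced reads and the DRB libraries 59248519 and 62799428. Of these, 99.1% to 99.3% crossed an intron annotated in GENCODE. Gene levels are reads over annotated junctions as CPM, that is scaled to the same library total by TMM factors, and changes are log2 differences, DRB minus control, tested with edgeR's quasi-likelihood test and Benjamini-Hochberg adjustment (adjusted p) over all genes. CPM depends on the number of junctions, so levels of single genes are compared between libraries and not with other genes. Where CPM is summed over a list or used to bin genes, genes with more introns count for more or stand higher. "Rose" and "fell" are used for genes with an adjusted p under 0.05. Total RNA was not measured here, so every change is relative to the other transcripts. The 2 libraries of a group are not stated to be separate cultures, so a p-value here reflects the spread of these libraries alone, and that spread may be technical. The control columns bear no word for control and were assigned because every other column name fits another group. Names of some other columns for the DRB libraries mention TTX, a blocker of action potentials. The labels do not say whether the cultures received it, so an effect of DRB and one of TTX cannot be told apart.

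Of 15626 genes tested, 4622 rose (29.6%) and 5134 fell (32.9%). Falls were the larger: 1786 genes fell by 2-fold or more (11.4%) and 455 rose by as much (2.91%). The median change over all genes was -0.03 (quartiles -0.55 and 0.37). The split depended on the scaling. With library size alone the median gene stood at -0.22, and 3002 genes rose and 6856 fell. Scaled so that cytosolic ribosomal protein genes held still, the median gene stood at -0.51, and 1104 rose and 9597 fell. Of 64 gene lists, 30 had a negative median under all 4 scalings tried, 13 a positive median under all 4, and 21 changed sign. One of the 13 is the ribosomal protein list, which the third scaling holds at about 0. Changes are given for TMM scaling, and lists described below that changed sign are named as such.

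**Figure D1:**
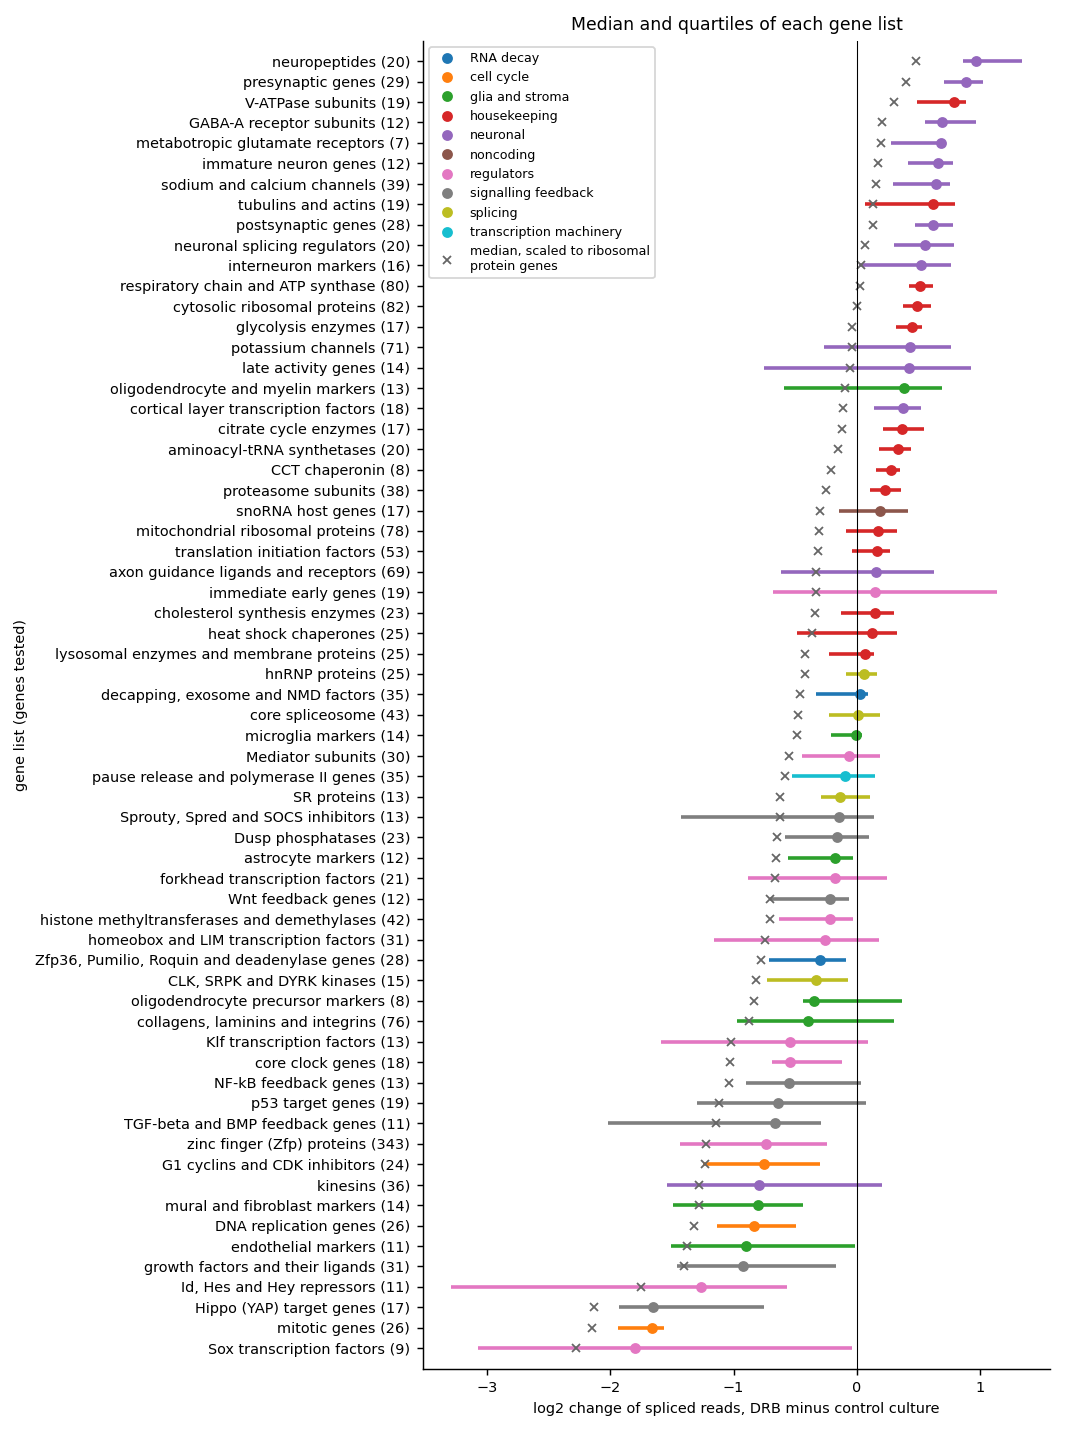
Median log2 change of spliced reads (DRB minus control culture, TMM scaling) for each of 64 gene lists, with the quartiles of the genes tested as bars and their number in brackets; crosses are the medians when scaled to ribosomal protein genes. Sox factors, mitotic genes and YAP targets stand lowest, at -1.80, -1.66 and -1.65, and neuropeptides highest, at 0.97.

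Transcription factors and their inhibitors were among the transcripts that fell most. Of 11 genes for Id, Hes and Hey proteins, which block or repress helix-loop-helix factors, 9 fell and 0 rose (of all genes 32.9% fell and 29.6% rose), with a median of -1.26. Id3 stood at 25.8 and 24.8 CPM in the control libraries and 1.68 and 1.25 CPM under DRB, and Id4 at 28.5 and 34.8 against 4.92 and 6.32 CPM. Hey1, a target of Notch and the middle of the list, changed by -1.26 ± 0.08 (SE). In each of these 3 genes both DRB libraries lay below both controls.

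Sox factors had the lowest median of any list, -1.80, though only 9 of 11 listed genes passed the filter on low counts. Of these 5 fell and 1 rose. Sox8 and Sox9, which act in glia, changed by -3.12 ± 0.17 and -3.08 ± 0.13 (SE). Sox13, at the median, stood at 9.34 and 9.85 CPM in the control libraries and 2.43 and 3.08 CPM under DRB. Sox5, a factor of deep-layer neurons, was the member that rose (16.6 and 16.8 against 19.3 and 22.9 CPM; adjusted p = 0.0074 by edgeR), but stood at -0.14 when scaled to ribosomal protein genes and was not called without DRB library 2 (0.21; adjusted p = 0.1 by edgeR).

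Krüppel-like factors fell in 7 of 13 genes, with a median of -0.54. Klf2, a factor of endothelial quiescence, stood at 1.19 and 1.09 CPM in the control libraries and 0.0541 and 0.0339 CPM under DRB, a change of -4.64 ± 0.33 (SE; adjusted p = 3.5e-07 by edgeR). Klf8 rose (4.21 and 5.35 against 6.98 and 6.72 CPM), a call lost without control library 1 (0.36; adjusted p = 0.076 by edgeR). The much larger group of zinc finger (Zfp) proteins, mostly DNA-binding repressors, leaned one way: 235 of 343 fell, 133 of them by 2-fold or more, and 20 rose. Their median was -0.74. Zfp105 and Zfp84 changed by -3.01 ± 0.20 and -2.73 ± 0.17 (SE), and Zfp707, at the median, by -0.74 ± 0.15. Zfp365 was among the few that rose (13.3 and 13.3 against 18.4 and 19 CPM).

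Circadian clock genes, whose products form a daily feedback loop of transcription, fell in 12 of 18 cases. The repressor Bhlhe41 stood at 14.3 and 11.5 CPM in the control libraries and 2.13 and 2.25 CPM under DRB. Dbp and Nr1d1 changed by -1.39 ± 0.07 and -1.06 ± 0.05 (SE), and Arntl, the partner of Clock, by -0.54 ± 0.06. Per1, whose transcript is also induced by activity, rose under TMM scaling (149 and 153 against 168 and 189.6 CPM) and stood at -0.24 when scaled to ribosomal protein genes. That call was lost without control library 1 (0.23; adjusted p = 0.054 by edgeR) or DRB library 2 (0.16; adjusted p = 0.11). Histone methyltransferases and demethylases fell in 23 of 42 genes, with a shallow median of -0.22. Ezh2, the enzyme of the Polycomb mark, changed by -1.20 ± 0.08 (SE) and Kdm3a by -0.78 ± 0.06.

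Several lists of signalling feedback genes were lower as well. Of 17 targets of YAP, the effector of the Hippo pathway, 16 fell and none rose, with a median of -1.65. Ajuba, an adaptor of cell junctions, stood at 34.7 and 32.2 CPM in the control libraries and 3.66 and 3.54 CPM under DRB, and Ccn2, a secreted matrix protein, at 74.8 and 72.3 against 9.88 and 9.82 CPM. Dlc1, at the middle of the list, changed by -1.65 ± 0.06 (SE). TGF-beta and BMP feedback genes fell in 10 of 11 cases and rose in none. Smad6 stood at 3.19 and 3.77 CPM in the control libraries and 0.198 and 0.152 CPM under DRB and Bambi at 7.44 and 7.26 against 0.541 and 0.440 CPM, both inhibitors of BMP signalling. Smurf2, a ubiquitin ligase for Smads and the median member, changed by -0.66 ± 0.06 (SE).

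Growth factors and their ligands had 19 of 31 genes lower and 4 higher. The Notch ligand Jag1 changed by -2.41 ± 0.10 (SE), the microglial growth factor Csf1 by -1.76 ± 0.09 and Hbegf by -1.48 ± 0.08. Fgf13, which binds sodium channels inside neurons rather than acting as a ligand, rose (44 and 46.4 against 78.2 and 80.4 CPM). Of 19 p53 targets 10 fell and 3 rose. Mdm2, the ubiquitin ligase of p53, stood at 65.1 and 62.8 CPM in the control libraries and 19.5 and 20.8 CPM under DRB, and Ccng2 at 38.4 and 36.2 against 14.1 and 13 CPM. NF-kB feedback genes fell in 6 of 13 cases, among them Tnfaip3 (4.47 and 4.12 against 1.10 and 1.78 CPM) and Nfkb1 (89.2 and 80.9 against 41.6 and 44.7 CPM). Dusp phosphatases were mixed. 8 of 23 fell and 2 rose, with Dusp1 at 19.2 and 18.7 against 5.72 and 4.40 CPM and Dusp15 at 9.21 and 9.77 against 20.0 and 19.3 CPM. Wnt feedback genes fell in 4 of 12 cases and rose in none. Sprouty, Spred and SOCS inhibitors fell in 5 of 13 and rose in 2. The shares lower in the NF-kB, Dusp, Wnt and Sprouty lists were 46.2%, 34.8%, 33.3% and 38.5%, against 32.9% of all genes.

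Cell cycle transcripts fell together. All 26 mitotic genes fell, 25 of them by 2-fold or more, and the median was -1.66. Cdc20, an activator of the anaphase complex, stood at 30.5 and 31.2 CPM in the control libraries and 6.76 and 6.99 CPM under DRB. Top2a stood at 221 and 193 against 64.8 and 69.7 CPM, Ccna2 at 38.1 and 35.7 against 12 and 11.6 CPM and Cdk1, the median, at 44.6 and 39.7 against 13.3 and 13.5 CPM. DNA replication genes fell less far: 24 of 26 fell, 9 by 2-fold or more, with a median of -0.84. Rrm2, of ribonucleotide reductase, and the helicase subunit Mcm4 changed by -1.45 ± 0.08 and -1.24 ± 0.07 (SE), and Rfc2 was the member that rose (69 and 69.6 against 93.3 and 81.1 CPM), though at -0.16 when scaled to ribosomal protein genes. Of G1 cyclins and CDK inhibitors 18 of 24 fell. Ccne2 stood at 11.6 and 10.6 against 1.73 and 1.88 CPM, Myc at 11.2 and 10.6 against 2.06 and 2.35 CPM and Ccnd1 at 57 and 54.8 against 24.5 and 24.4 CPM. Kinesins, the microtubule motors, went both ways. The list's median was -0.80, with 23 of 36 lower and 11 higher. Kif18b, a mitotic motor, fell (11.1 and 11.4 against 1.98 and 2.03 CPM), and the axonal motors Kif5a (857 and 883 against 1688 and 1709 CPM) and Kif5c (676 and 662 against 1140.4 and 1159 CPM) rose.

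Markers of cells other than neurons did not move as one, and those of vessel wall and matrix cells were mostly lower. Mural and fibroblast markers fell in 11 of 14 cases and rose in 2. Thbs1 and Tagln changed by -2.96 ± 0.11 and -2.16 ± 0.09 (SE), and Dcn, a matrix proteoglycan, rose (12.7 and 12 against 26.6 and 28.3 CPM). The summed level of this list was 2509 and 2163 CPM in the control libraries and 645 and 646 CPM under DRB. Members with the most junction reads weigh most in this sum, and the list's median change was -0.80. Endothelial markers fell in 5 of 11. The receptor Kdr stood at 111 and 92.9 against 23.3 and 25.8 CPM, while the defining adhesion protein Pecam1 was near 1 CPM and rose (0.812 and 0.903 against 1.57 and 1.88 CPM). Collagens, laminins and integrins had 39 of 76 lower and 17 higher.

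Astrocyte markers held closer to the median gene. 6 of 12 fell and 2 rose, with a median of -0.18 and a summed level of 2949 and 2968 CPM in the control libraries and 2649 and 2781 CPM under DRB. Fgfr3 stood at 128 and 132 against 65.2 and 71.1 CPM and Aqp4 at 31.3 and 29.5 against 17.6 and 17.6 CPM, and Aldoc rose under TMM scaling (348 and 379 against 432 and 426 CPM) and stood at -0.24 when scaled to ribosomal protein genes. Microglia markers had 1 lower and 1 higher of 14. Aif1 rose (12.4 and 13.7 against 23.3 and 23.8 CPM) and Tyrobp, the median, did not pass (36.6 and 49.7 against 38 and 47.7 CPM). The median of the microglia list, -0.01, changed sign with the scaling. Scaled to ribosomal protein genes it was -0.49, and 11 of the 14 fell and 1 rose. Oligodendrocyte and myelin markers went both ways: 6 of 13 rose and 4 fell, with a median of 0.39 that was -0.10 when scaled to ribosomal protein genes. The transcription factor Olig2 fell (10.8 and 12.3 against 4.83 and 5.06 CPM). Of 8 markers of oligodendrocyte precursors 3 rose and 4 fell, with Cspg5, a proteoglycan that neurons also make, at 194 and 208 against 317 and 323 CPM. Tmem119, a defining microglial marker, was at 0 in 3 of the 4 libraries and had 3 reads in the other. In bulk libraries, fewer cells of a type and less RNA per cell cannot be told apart. The part of cell composition in these results was not tested.

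Most neuronal lists stood on the higher side. Of 20 neuropeptide genes 19 rose and none fell, 10 of them by 2-fold or more. Sst, somatostatin, stood at 12.1 and 12.8 CPM in the control libraries and 50.4 and 49.1 CPM under DRB. Npy stood at 23.8 and 21.2 against 67.4 and 61.1 CPM and the granule protein Chgb at 57.4 and 61 against 111 and 109 CPM. Presynaptic genes rose in 27 of 29 cases, with a median of 0.88. Snap25, part of the vesicle fusion machinery, stood at 317 and 347 against 717 and 700.4 CPM, and the priming factor Unc13a at 308 and 326 against 584 and 586 CPM. Rims2 was the member that fell (37.5 and 39.1 against 35.1 and 34.2 CPM; adjusted p = 0.025 by edgeR). It was not called without control library 2 (-0.11), DRB library 1 (-0.17) or DRB library 2 (-0.13), nor by DESeq2 (-0.13).

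Postsynaptic genes rose in 25 of 28 cases, with Grin1, the obligatory NMDA receptor subunit, at 379 and 409 against 826 and 816 CPM and the scaffold Dlg2 at 209 and 213 against 413 and 413 CPM. Homer3 fell (20.8 and 22.4 against 14.4 and 15.3 CPM). GABA-A receptor subunits rose in 10 of 12 cases, Gabra2 by 1.18 ± 0.07 (SE). Sodium and calcium channels rose in 29 of 39 genes. Cacng3, a calcium channel subunit that also acts on AMPA receptors, changed by 1.24 ± 0.08 (SE). Neuronal splicing regulators rose in 17 of 20 cases and fell in none, with Rbfox3 at 87.5 and 90.3 against 183 and 173 CPM, Rbfox1 at 46.5 and 49.4 against 96.3 and 94.1 CPM and Celf4 at 236 and 251 against 418 and 427 CPM. Interneuron markers rose in 11 of 16 cases and fell in 3, immature neuron genes rose in 10 of 12 and metabotropic glutamate receptors in 5 of 7. Gap43, of growing axons, stood at 231 and 236 against 595 and 535 CPM, and Nes, the intermediate filament of progenitors, was the immature neuron gene that fell (-1.67 ± 0.09, SE). These 9 lists kept a positive median under all 4 scalings, but some were near 0 when scaled to ribosomal protein genes. There the medians ran from 0.03 for interneuron markers (4 higher, 4 lower) to 0.48 for neuropeptides (15 higher, 1 lower). Neuronal splicing regulators stood at 0.07 (9 higher, 5 lower) and presynaptic genes at 0.40 (21 higher, 1 lower).

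Potassium channels, cortical layer factors and late activity genes had positive medians under TMM scaling that turned negative when scaled to ribosomal protein genes, at -0.04, -0.11 and -0.06. Among layer factors 13 of 18 rose and none fell, led by Mef2c (158 and 158 against 305 and 288 CPM). Axon guidance ligands and receptors went both ways, with 33 of 69 higher and 24 lower. Their median of 0.16 became -0.03 with library size alone and -0.33 when scaled to ribosomal protein genes. The ephrin Efnb3 rose (65.2 and 68.5 against 118 and 125 CPM) and the ephrin receptor Ephb4 fell (30.3 and 31.7 against 7.12 and 7.96 CPM). The Sox, Klf, forkhead, homeobox and zinc finger lists all had negative medians. The potassium channel Kcnj10, an astrocyte channel, fell (19.1 and 20.4 against 6.10 and 5.60 CPM), and the neuronal Kcnh3 rose (66 and 74.8 against 146 and 148 CPM).

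Immediate early genes, which activity induces within minutes, did not move as one. Of 19 tested 8 rose, 5 of them by 2-fold or more, and 5 fell, all by 2-fold or more. The list's median of 0.15 became -0.04 with library size alone. Scaled to ribosomal protein genes it was -0.33, where 5 rose and 8 fell. Fosb stood at 0.830 and 1.31 CPM in the control libraries and 12 and 10.1 CPM under DRB. Fos stood at 12.8 and 12.5 against 46.4 and 41.4 CPM and Nr4a1 at 14.6 and 14.3 against 85.4 and 86.2 CPM, where both DRB libraries were 3-fold or more above both controls. Nr4a3, at the median, did not pass (36.5 and 36.9 against 38.5 and 43 CPM; adjusted p = 0.11 by edgeR). Dusp1 and Klf4 were among those that fell (2.02 and 2.28 against 0.397 and 0.457 CPM for Klf4). Late activity genes also split: Scg2 rose (28.7 and 27.3 against 64.7 and 57.8 CPM) and Plk2 and Gadd45g fell (130.1 and 129 against 58.8 and 52.6 CPM and 15.8 and 16.2 against 4.51 and 4.01 CPM).

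Transcripts of energy metabolism and protein synthesis stood on the higher side in order. Respiratory chain and ATP synthase genes rose in 75 of 80 cases, with narrow quartiles of 0.42 and 0.62. Scaled to ribosomal protein genes, their median was 0.02, and 12 rose and 5 fell. Ndufa4, Cox7b and Cox5a stood at 324 and 324 against 572 and 518 CPM, 227 and 229 against 377 and 347 CPM and 178 and 182 against 283 and 281 CPM. V-ATPase subunits, which acidify synaptic vesicles and lysosomes, rose in 16 of 19. The neuronal subunit Atp6v1g2 stood at 44.7 and 50.6 against 111 and 105 CPM, and Atp6v0a2 fell (83.6 and 81.9 against 51.5 and 52.1 CPM). Cytosolic ribosomal protein genes rose in 66 of 82 cases (median 0.49). Rplp1 stood at 312 and 315 against 508 and 478 CPM. Rps27l, a p53 target with a ribosomal name, fell (61.5 and 59.5 against 43 and 42.4 CPM). Many ribosomal protein genes have processed copies, and how reads with several matches were treated is not given, so single values in this list are uncertain.

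Glycolysis, citrate cycle and aminoacyl-tRNA synthetase genes rose in 14 of 17, 15 of 17 and 16 of 20 cases under TMM scaling. Their medians were -0.04, -0.12 and -0.15 when scaled to ribosomal protein genes. Hk2, a hexokinase, was the glycolysis gene that fell (5.32 and 4.67 against 1.41 and 0.914 CPM), and Eno2, the neuronal enolase, rose (238 and 258 against 484 and 471 CPM). Proteasome subunits rose in 27 of 38, and cholesterol synthesis genes in 10 of 23, with 5 lower. Both medians turned negative when scaled to ribosomal protein genes.

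Genes of splicing sat near the median gene, and the medians of the core spliceosome and hnRNP lists changed sign with the scaling. Core spliceosome genes had 13 higher and 11 lower of 43. Snrpn, the neuronal form of SmB, rose (559 and 588 against 1277 and 1191 CPM) and Prpf4 fell (39.8 and 37.6 against 24.5 and 24.6 CPM). Of hnRNP genes 8 rose and 4 fell of 25. Ptbp1, the splicing repressor of non-neuronal cells, stood at 156 and 153 CPM in the control libraries and 64 and 67.8 CPM under DRB, and its neuronal relative Ptbp2 at 136 and 135 against 173 and 178 CPM, a rise that became -0.11 when scaled to ribosomal protein genes. SR protein genes fell in 7 of 13 cases, Srsf7 most (101.6 and 107 against 59.9 and 61.1 CPM), and Srsf11 rose (195 and 177 against 214 and 222 CPM; -0.25 when scaled to ribosomal protein genes). The kinases that phosphorylate SR proteins had a negative median under all 4 scalings (-0.33), with Clk1 at 197 and 205 against 115 and 125 CPM and Srpk2, which rose, at 208 and 209 against 264 and 262 CPM (-0.15 when scaled to ribosomal protein genes).

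Of the 2 lists of RNA decay genes, 1 leaned lower. The regulators of deadenylation (Zfp36, Pumilio, Roquin and CCR4-NOT genes) fell in 17 of 28 cases and rose in 2. Zfp36l2 and Zfp36l1, which bind AU-rich elements and recruit deadenylases, stood at 7.70 and 9.53 against 0.757 and 0.525 CPM and 10.5 and 12.7 against 1.77 and 2.17 CPM. Decapping, exosome and NMD factors, whose median of 0.02 changed sign with the scaling, fell in 12 of 35 and rose in 4. Their share lower, 34.3%, was near the 32.9% of all genes, and their share higher was 11.4% against 29.6%. Exosc3, an exosome subunit, changed by -2.58 ± 0.13 (SE) and Upf1, the helicase of NMD, by -0.47 ± 0.05. Of pause release and polymerase II genes, the machinery DRB acts on, 16 of 35 fell and 8 rose. Polr2a, the largest subunit of the polymerase, stood at 258 and 256 against 179 and 179.5 CPM and Nelfa, of the pausing factor NELF, at 33.8 and 34.5 against 16.1 and 15.9 CPM. Mepce, of the 7SK RNA complex that holds P-TEFb inactive, stood at 24.2 and 22.6 against 11.4 and 10.2 CPM. Supt5, of the elongation factor DSIF, rose (387 and 402 against 509 and 496 CPM) but stood at -0.13 when scaled to ribosomal protein genes.

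Among genes whose mean log2 CPM reached 3, the 10 largest falls also held Ccn5, Nedd9, Adamts1, Rassf4, Lfng and Ltbp2. Lfng, which modifies Notch, stood at 84.1 and 81.8 CPM in the control libraries and 11.7 and 13.3 CPM under DRB. Nedd9, a scaffold of focal adhesions, stood at 23.2 and 21.5 against 2.89 and 3.27 CPM and Ltbp2, which binds to the matrix, at 59.4 and 50.6 against 9.97 and 6.99 CPM. The 10 largest rises held Calb1, a calcium buffer of neurons, at 92.9 and 90.5 CPM in the control libraries and 278 and 248 CPM under DRB. Slc30a3, the zinc transporter of synaptic vesicles, stood at 7.27 and 9.59 against 27.2 and 21.2 CPM, Ache, acetylcholinesterase, at 13.6 and 14.1 against 38.8 and 37.5 CPM, and Klhl4 at 8.08 and 7.65 against 24.8 and 22.6 CPM. Each of these 20 genes kept its direction and its call under all 4 scalings and every other alternative tried.

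**Figure D2:**
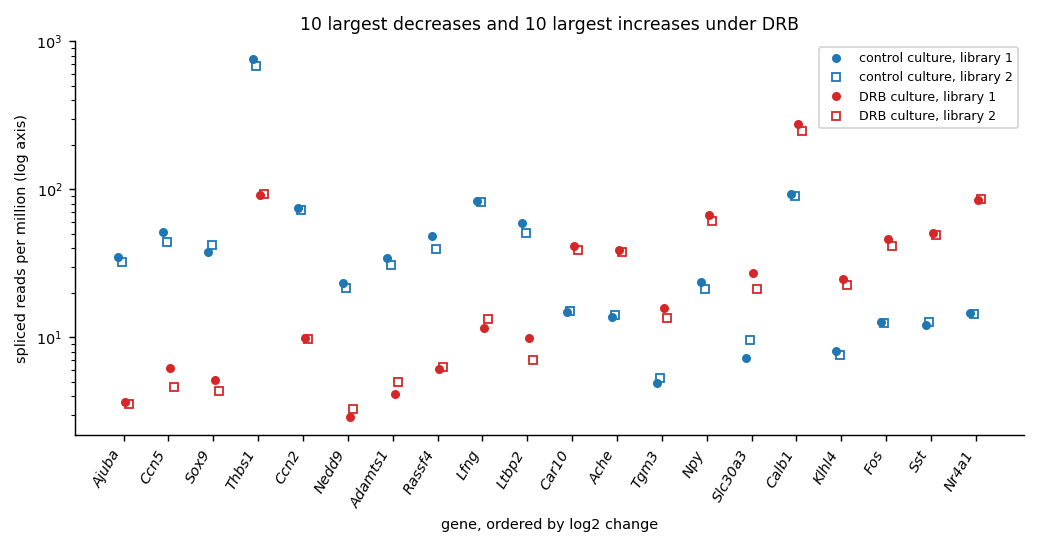
Spliced reads of a gene in CPM (log axis) in each of the 4 culture libraries for the 10 largest falls and 10 largest rises under DRB. In all 20 genes both DRB libraries (red) lie on one side of both control libraries (blue), from 34.7 and 32.2 against 3.66 and 3.54 CPM for Ajuba to 14.6 and 14.3 against 85.4 and 86.2 CPM for Nr4a1.

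Gene structure and abundance were then set beside the change, as a description without a test. Abundance went with the direction. Of all genes tested with a mean log2 CPM of 8 or more, 72.1% rose and 12.1% fell, and between 2 and 4, 18.9% rose and 50.1% fell. The mean is over both groups, so part of this order is set by the change itself for genes near a bin's edge. Other features were read over 14770 protein-coding genes, and mostly within those of mean log2 CPM 4 to 6. There, 54.5% of genes with 2 to 3 introns rose and 21% fell, against 22.9% and 56.6% with 21 or more. Over genes of all levels this order was not seen. With 2 to 3 introns 25.5% rose and 34.5% fell, against 33.7% and 36.8% with 21 or more. At equal CPM a gene with more introns has fewer transcripts, since each transcript gives more junction reads.

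Coding length followed the same order. In that range of level, the median change was 0.24 under 600 nt and -0.46 at 5000 nt or more. Gene span did not run one way. The median was 0.33 under 3 kb, -0.15 from 30 to 100 kb and 0.35 in the 172 genes of 300 kb or more, of which 60.5% rose.

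Genes were also counted by matches to sequence elements known from decay in their 3′ UTR, on the transcript strand. With ATTTA, the shortest AU-rich element, 28% of genes with none fell, 34.4% with 1, 38.4% with 2 to 4 and 39.6% with 11 or more. Median changes ran from 0.05 with none to -0.11 with 11 or more. These bins hold genes of all levels, and the median level was also lower with none (mean log2 CPM 3.82 against 4.47). The longer TATTTAT, which holds ATTTA, showed no single order. At a mean log2 CPM of 4 to 6, 37.2% of genes with none fell, 43.5% with 1, 44.1% with 2 and 35.4% with 3 or more. At all levels, 32.6% of genes without TGTANATA, the Pumilio motif, fell, 39.3% of those with 1 and 40.1% of those with 2 or more. The length of the 3′ UTR followed a similar order. With under 300 nt 26.4% of genes fell, and with 2500 nt or more 38.6%. A longer UTR has more room for matches, and the number of matches was not separated from length. Genes poor in G and C at the third codon position fell more often, 43.6% under 45% against 30.5% at 65% or more. A match to these letters is a description and not a site.

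Long noncoding RNAs leaned opposite to coding genes in these values. Of 785 tested, 146 rose (18.6%) and 56 fell (7.13%), with a median of 0.21 against -0.04 for coding genes. Under ribosomal protein scaling their median was -0.22. Their levels were low, so fewer could pass the test. Snhg11, a neuronal host gene of small nucleolar RNAs, stood at 21.7 and 22.5 CPM in the control libraries and 48.5 and 53.7 CPM under DRB, and Snhg17 fell (10.4 and 9.53 against 6.22 and 6.84 CPM).

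Single junctions were then compared with the other junctions of the same gene, so that a change of the whole gene cancels. The relative change of a junction is its log2 change minus that of its gene, tested with edgeR's diffSpliceDGE over all junctions. Of 161026 junctions tested in 13594 genes, 2063 (1.28%) gained and 1102 (0.684%) lost. These lay in 1249 and 713 genes. By 2-fold or more, 1403 gained (0.871%) and 505 lost (0.314%). Scaling between libraries does not enter, since both sides of the ratio come from one library. Fewer passed without 1 library: 1085 and 507 without control 1, 1194 and 577 without control 2, 1277 and 444 without DRB 1, and 1178 and 487 without DRB 2.

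Gains were a larger share of the junctions outside coding transcripts. Of junctions in protein-coding transcripts, 0.593% gained and 0.666% lost (145420 tested). Of junctions annotated in NMD transcripts only, 10.2% gained and 1.35% lost (1921). Of those in other noncoding transcripts of coding genes, such as ones with a retained intron, the shares were 6.70% and 1.35% (2075). Of junctions absent from GENCODE that share a splice site with annotated introns of 1 gene, they were 8.54% and 0.743% (10095). Noncoding genes stood at 0.330% for both.

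A junction with few reads enters the test only if it has enough in one group, which could favour gains. Among junctions with a mean of at least 20 reads over the 4 libraries, 15.6% of NMD-only, 11.8% of unannotated and 0.627% of coding junctions gained. Junctions with more reads also pass more easily, so the shares of classes with different depth are set side by side without a test. The median NMD-only junction in this set had 41 reads in control and the median coding junction 202.

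**Figure D3:**
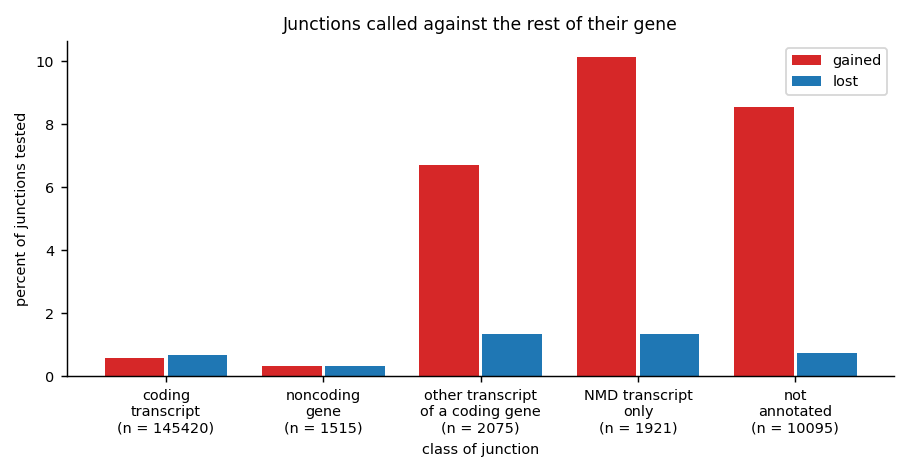
Percent of junctions tested that gained (red) or lost (blue) against the other junctions of their gene under DRB, by annotation class, with the number tested under each. Gains reach 10.2% in junctions of NMD transcripts only and 8.54% in unannotated ones, against 0.593% in coding transcripts.

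Many gains outside the annotation came in pairs that enter and leave a stretch with no annotated exon. Of the 862 unannotated junctions that gained, 408 left an annotated donor for an unannotated acceptor and 406 left an unannotated donor for an annotated acceptor. The junctions tested of these 2 kinds were also close in number, 4647 and 4718, so the near equality of the gains describes the junctions that entered. For 305 of the 408 that led to a new acceptor, reads left again within 500 nt at 50% or more of the number that entered, as they do at an internal exon, and for 56 no read left. Of gained junctions, 110 had no read in either control library, 100 of them unannotated, and 38 of these 110 had none in the 4 tissue libraries of the table (neocortex of postnatal day 10 and 49) either.

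Exons of up to 500 nt, outside chromosome 18, were then taken for which both flanking junctions were called the same way. A skipping junction had to be in the table, and inclusion had to shift by 5 percentage points or more. Inclusion is the mean of the 2 flanking junctions as a share of that mean plus the skipping reads. There were 190 such exons in 170 genes, 185 with gained and 5 with lost junctions. The set was chosen from these same reads, so its values are a description. Overlapping forms of an exon count separately, and 19 of the 190, in 9 genes, share a flanking junction with another form, so that its reads count for both. A narrow inclusion, added after seeing the data, is therefore given too: the reads of the flanking junction with fewer reads, as a share of those of the other flanking junction plus the skipping reads. Of the 185, 94 had both junctions unannotated, with a median inclusion of 2.09% in control and 16.4% under DRB. In 25 a junction was known from NMD transcripts only (9.28% and 35.8%), and in 42 both were in coding transcripts (22.3% and 44%). The narrow inclusion had medians of 1.38% and 12.4%, 4.40% and 19.0%, and 19.6% and 36.8% in these 3 classes.

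Apart from the upper limit of 500 nt, exon length was not used in the choice. Of the 42 exons with both junctions in coding transcripts, 83.3% had a length divisible by 3, which keeps the reading frame where the exon is coding. Their median length was 43.5 nt, with 13 under 30 nt. Of the exons with an NMD-only junction 24.0% were divisible by 3, at a median length of 118 nt. Of the unannotated exons 34.0% were, at a median of 91 nt.

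**Figure D4:**
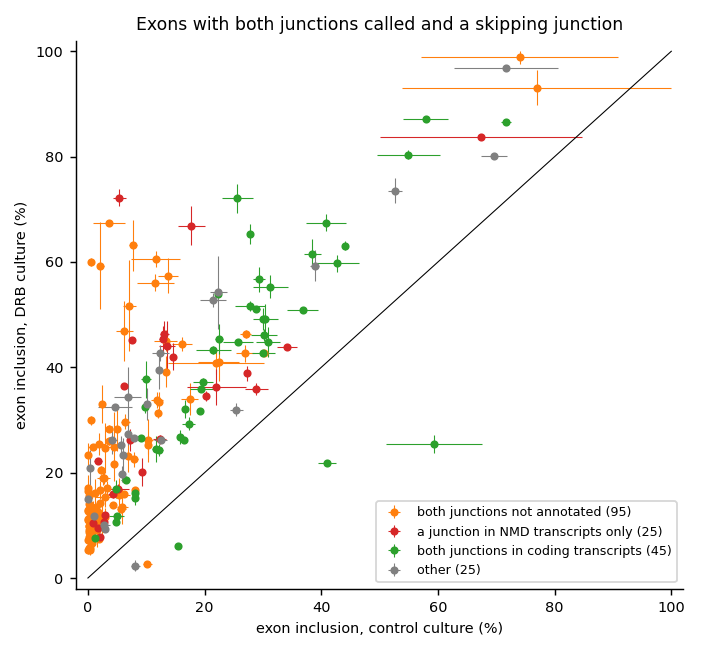
Inclusion of 190 exons (percent of reads) in control and DRB cultures; points are the means of 2 libraries, bars run from one library to the other, and colours give the annotation of the flanking junctions. All but 5 exons lie above the diagonal, and gained exons without annotation (orange) have a median of 2.09% in control.

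The sequences below show the gained exons that annotated NMD transcripts enter, from 12 coding bases of the exon before to the stop codon inside the exon, in capitals. They are those with the smallest p, one for each gene, from GENCODE transcripts on GRCm38 (mm10).
Luc7l3: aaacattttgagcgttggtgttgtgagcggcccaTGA
Arid4b: agggaaaaggcagtgccccacacTGA
Tia1: aggatacgagcatcTGA
Rbm39: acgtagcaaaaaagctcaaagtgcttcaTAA
Plxna2: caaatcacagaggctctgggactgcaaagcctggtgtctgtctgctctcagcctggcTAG
Chd2: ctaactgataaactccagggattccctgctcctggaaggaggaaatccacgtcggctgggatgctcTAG

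In all 6 the stop codon comes within 57 nt of the exon's start, and TGA, TAA and TAG all occur. Inclusion of the 79 nt exon of Luc7l3, a U1-associated splicing factor (chr11:94292394-94292472, minus strand), went from 15.5% and 20.0% in the control libraries to 70.6% and 63.1% under DRB. These values include reads of an in-frame form of 66 nt, which shares the entry junction: under DRB 245 and 242 reads left the 66 nt form and 118 and 96 the 79 nt one. The narrow inclusion of the 79 nt form went from 5.34% and 0.645% to 22% and 19.7%. For Arid4b, a subunit of a histone deacetylase complex, the 153 nt exon (chr13:14191949-14192101, plus strand) went from 4.26% and 6.44% in the control libraries to 73.8% and 70.6% under DRB. For Tia1, an RNA-binding protein of stress granules and splicing, the 119 nt exon (chr6:86419694-86419812, plus strand) went from 7.34% and 7.72% in the control libraries to 45.1% and 45.2% under DRB, and its narrow inclusion, since a longer form shares its exit, from 1.99% and 3.82% to 26.7% and 30.2%. In these 3 both DRB libraries were far above both controls.

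The 55 nt exon of Rbm39, a splicing factor related to U2AF (chr2:156176403-156176457, minus strand), went from 32.4% and 35.8% in the control libraries to 43.8% and 44% under DRB. A longer form shares its entry, and the narrow inclusion went from 12.7% and 12.4% to 21.4% and 27.7%. The 188 nt exon of the semaphorin receptor Plxna2 (chr1:194769369-194769556, plus strand) went from 0.870% and 0.704% in the control libraries to 9.70% and 11.2% under DRB, and the 113 nt exon of the chromatin remodeller Chd2 (chr7:73454691-73454803, minus strand) from 12.2% and 15% in the control libraries to 39.2% and 48.7% under DRB. Trp53bp1, a DNA repair protein, had a gained 56 nt exon (chr2:121203397-121203452, minus strand) whose inclusion went from 2.37% and 1.10% in the control libraries to 22% and 22.4% under DRB; it was chosen after its values were seen.

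Coding exons that gained are shown whole, in capitals, with 12 bases of the exons on either side, as the 4 shortest of the 6 with the smallest p, followed by the shortest of those that lost.
Ewsr1: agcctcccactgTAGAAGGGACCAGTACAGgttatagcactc
Ptprf: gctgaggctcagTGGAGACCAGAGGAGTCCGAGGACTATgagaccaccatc
Ap3b1: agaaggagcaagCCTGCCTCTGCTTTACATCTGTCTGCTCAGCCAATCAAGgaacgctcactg
Wnk1: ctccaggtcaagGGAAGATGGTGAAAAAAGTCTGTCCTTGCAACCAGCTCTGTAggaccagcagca
Afdn: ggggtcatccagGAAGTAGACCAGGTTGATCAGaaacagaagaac

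All 5 are a whole number of codons long. Inclusion of the 18 nt exon of Ewsr1, an RNA-binding protein (chr11:5091460-5091477, minus strand), went from 19.3% and 19.3% in the control libraries to 31.4% and 32.1% under DRB. The 27 nt exon of the receptor phosphatase Ptprf (chr4:118227819-118227845, minus strand) went from 28.3% and 30.3% in the control libraries to 59% and 54.3% under DRB, and the 39 nt exon of Ap3b1, of the AP-3 coat of endosomes (chr13:94543984-94544022, plus strand), from 21.8% and 22.7% in the control libraries to 53.3% and 54.7% under DRB. The 42 nt exon of the kinase Wnk1 (chr6:119929826-119929867, minus strand) went from 7.25% and 10.8% in the control libraries to 26% and 27.2% under DRB. Afdn, the junction adaptor afadin, lost its 21 nt exon (chr17:13848355-13848375, plus strand), from 39.5% and 42.6% in the control libraries to 22.1% and 21.7% under DRB. Where cell types differ in such an exon, a shift between cell types and a shift within cells cannot be told apart.

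Among unannotated exons, the 122 nt one in Kdm3a (chr6:71592281-71592402, minus strand) led by the size of its relative change. The junction that leaves it (chr6:71592193-71592280) had 0 and 0 reads in the control libraries and 40 and 49 under DRB, at least 25.3-fold higher per spliced read against a floor of 3 counts over the control group. Inclusion went from 0.0968% and 0.0989% in the control libraries to 17.6% and 16.6% under DRB, while the gene as a whole fell. These values include reads that enter a 44 nt form through the same junction: under DRB 40 and 49 reads left the 122 nt form and 31 and 36 the 44 nt one. The narrow inclusion of the 122 nt form was 13.7% and 15.4% under DRB. The next by this rule was Atp1b1, of the sodium pump, at chr1:164441642-164442292 with 0 and 0 reads in the control libraries and 114 and 105 under DRB, at least 62.4-fold. This was still only 0.726% and 0.648% of the reads at that acceptor. In Smarcad1 the 104 nt exon (chr6:65090757-65090860, plus strand) went from 0% and 0% in the control libraries to 19.6% and 13.5% under DRB. Exons of Tgds and Arid4a were chosen after their values were seen. The 158 nt exon of Tgds (chr14:118122463-118122620, minus strand) went from 0.971% and 0% in the control libraries to 59.3% and 60.8% under DRB, on 11 and 10 skipping reads under DRB, and the 130 nt exon of Arid4a (chr12:71072210-71072339, plus strand) from 8.42% and 6.99% in the control libraries to 67.9% and 58.4% under DRB. Their narrow inclusion went from 0% and 0% to 38.7% and 51.9% and, in Arid4a, where a shorter form shares the exit, from 4.57% and 5.85% to 59.4% and 43.1%.

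The other junctions of the 15 largest gains, one for each gene, lay in Epb41l2, Smarcad1, Qk, Mbnl1, Phlpp1, Tcf4, Upf2, Nhlrc2, Sugt1, Cnot1, Mbtps1, Trim2 and Tnpo1, and none of the 15 had a read in either control library. Mbnl1, a splicing regulator, used a junction of a noncoding form (chr3:60624042-60625123) with 0 and 0 reads in the control libraries and 40 and 53 under DRB, 18% and 18.9% of its acceptor's reads under DRB. Upf2, a core NMD factor, did so at chr2:6052185-6055432 with 0 and 0 reads in the control libraries and 28 and 19 under DRB. Cnot1, the scaffold of the CCR4-NOT deadenylase, used an NMD-only junction (chr8:95736394-95739807) with 0 and 0 reads in the control libraries and 29 and 19 under DRB.

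Shares of gained junctions differed between gene lists. Of junctions in SR protein genes 13.5% gained and 3.01% lost (133 tested), in 9 of 13 genes, against 1.28% and 0.684% of all. In deadenylase and Pumilio genes 5.19% gained, in CLK, SRPK and DYRK kinases 5.14%, in core spliceosome genes 4.10%, in hnRNP genes 3.20%, in decapping, exosome and NMD factors 1.92%, and in histone methyltransferases and demethylases 3.52%. In mitotic genes the share was 0.243% and in ribosomal protein genes 0.447%. Lists differ in how many of their junctions are alternative, so these shares describe the lists and no test compares them.

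Within SR proteins, Srsf2 gained at introns 2 and 3 and lost at intron 4 of an annotated form with 4 introns. Intron 3 (chr11:116850962-116851647) had 90 and 112 reads in the control libraries and 354 and 342 under DRB (relative log2 change 1.36 ± 0.19, SE; adjusted p = 1.2e-05 by edgeR). Intron 4 (chr11:116850354-116850855) had 475 and 511 reads in the control libraries and 294 and 361 under DRB. Srsf7 gained at 2 NMD-only junctions, one of which (chr17:80205082-80205261) had 76 and 80 reads in the control libraries and 151 and 205 under DRB. Srsf6 gained at chr2:162932980-162933425, with 0 and 1 reads in the control libraries and 23 and 40 under DRB, and Srsf11 at an NMD-only junction (chr3:158022951-158023242) with 121 and 201 reads in the control libraries and 433 and 505 under DRB.

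In the core spliceosome, U2af1, which reads the 3′ splice site, gained an NMD-only junction at chr17:31651713-31652501 with 32 and 30 reads in the control libraries and 147 and 139 under DRB (relative change 1.98 ± 0.23, SE). Snrnp70, of the U1 particle, gained one at chr7:45380819-45383124 with 47 and 47 reads in the control libraries and 149 and 141 under DRB. Prpf40b gained both junctions of an unannotated exon, with 5 and 8 reads in the control libraries and 40 and 60 under DRB entering it. Among hnRNPs, Hnrnpd gained an NMD-only junction from 57 and 54 reads to 272 and 300, and Hnrnpa2b1 lost chr6:51461434-51461919, with 1185 and 1259 reads in the control libraries and 485 and 530 under DRB. The kinase Srpk1 gained both junctions of an unannotated exon, with 4 and 0 reads in the control libraries and 52 and 32 under DRB entering it.

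In RNA decay genes, Pan3, of the PAN2-PAN3 deadenylase, changed by 2-fold or more at 6 junctions. Its junction chr5:147531308-147536400 lost, with 129 and 141 reads in the control libraries and 30 and 31 under DRB, and chr5:147537275-147539242, of a noncoding form, gained, with 18 and 10 reads in the control libraries and 81 and 90 under DRB. Upf3b, which links NMD to exon junctions, gained 3 unannotated junctions, among them chrX:37097709-37099506 with 0 and 0 reads in the control libraries and 13 and 12 under DRB. The decapping factor Dcp1a gained an NMD-only junction at chr14:30523812-30526186 with 2 and 0 reads in the control libraries and 20 and 22 under DRB. Btg1, a growth arrest gene, gained at chr10:96617829-96618275 with 1 and 3 reads in the control libraries and 19 and 18 under DRB.

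Neuronal genes held both directions. Losses of 2-fold or more included Stx1a, syntaxin of the synaptic membrane, at an NMD-only junction (chr5:135045735-135048910) with 17 and 14 reads in the control libraries and 2 and 2 under DRB. Syt1, which rose as a gene, lost an unannotated junction (chr10:108504531-108524231) with 97 and 116 reads in the control libraries and 30 and 26 under DRB. Nrxn3, of the neurexins, lost chr12:90283651-90331484 with 31 and 37 reads in the control libraries and 6 and 13 under DRB, Rims2 a first intron with 62 and 69 reads in control and 23 and 21 under DRB, and Kif1b a last intron (chr4:149238484-149245337) with 201 and 204 reads in the control libraries and 74 and 54 under DRB. Gad1, which makes GABA, lost at chr2:70579202-70584419 with 71 and 84 reads in the control libraries and 32 and 19 under DRB and gained an unannotated junction (chr2:70567249-70567377) with 4 and 0 reads in the control libraries and 41 and 49 under DRB. Celf2, a neuronal splicing regulator, lost a junction of its coding form (chr2:6553965-6560658) with 115 and 147 reads in the control libraries and 77 and 61 under DRB, and gained one that joins the same acceptor to a nearer, unannotated donor, with 1 and 0 reads in the control libraries and 14 and 21 under DRB. The latter was not called without control library 2 (relative change 3.63; adjusted p = 0.076 by edgeR). Dlg1, a synaptic scaffold, gained an NMD-only junction (chr16:31846934-31847635) with 26 and 27 reads in the control libraries and 76 and 107 under DRB.

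Of the 15 largest losses, 14 lay in coding transcripts and 1, in Syt1, was unannotated. Ccnl1, a cyclin of speckles that regulates splicing, lost intron 5 of 10 (chr3:65948791-65950479), with 110 and 120 reads in the control libraries and 17 and 10 under DRB (relative change -3.28 ± 0.27, SE; adjusted p = 9.9e-16 by edgeR). Its share of the donor's reads went from 65.1% and 66.7% to 13.2% and 6.76%. The others were in Ints6l, Myo5a, 9330159F19Rik, Ehbp1l1, Bclaf3, Lmo7, Etl4, Lrrfip1, Map1b, Tns1, Gin1, Vcan and Jmjd1c. The losses in 9330159F19Rik, Ehbp1l1, Lrrfip1, Map1b and Tns1 were first introns of a coding transcript.

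Position in the gene went with the relative change. Coding junctions of genes with 5 or more introns were placed in 10 equal bins from the 5′ to the 3′ end. The median relative log2 change was -0.09 in the first bin, -0.02 in the fifth and 0.06 in the last, and it rose at every step. Losses made up 1.41% of the first bin and 0.574% of the last, gains 0.373% and 1.52%. In each of the 4 pairings of a DRB with a control library the first bin lay below the last. Their medians were -0.14 to -0.05 in the first bin and 0.05 to 0.06 in the last. Not every pairing rose from the first bin to the second, where the medians ran from -0.08 to -0.06. The controls also differed from each other in the first bin, by 0.06, but by 0.00 in the last.

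The slope was steeper in long genes. In genes of 100 kb or more the medians ran from -0.13 to 0.10, and in genes under 30 kb from -0.06 to 0.03. In the first bin the controls differed from each other by 0.03 in the long genes and by 0.07 in genes under 30 kb. The 4 library pairs there ran from -0.16 to -0.10 and from -0.10 to -0.01. The first bin of the short genes thus moved no further than the controls did from each other. In the last bin of the long genes 2.77% of junctions gained. These shifts are small beside the changes of single exons above.

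**Figure D5:**
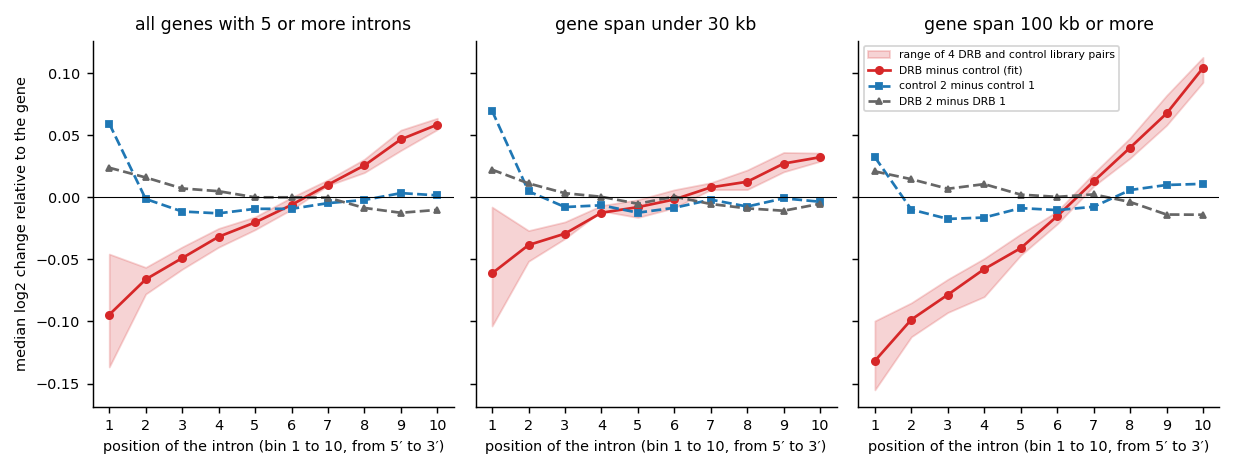
Median log2 change of coding junctions relative to their gene, by bin of the gene from 5′ to 3′, for genes with 5 or more introns; red, DRB minus control with the range of the 4 library pairs shaded; blue and grey, one library minus the other within the control and DRB groups. The red line rises from -0.09 to 0.06 in all genes and from -0.13 to 0.10 in genes of 100 kb or more, while the lines within groups stay within 0.02 of 0 after the first bin in all 3 panels.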

How the data were processed

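The table of junction read counts was deposited by the authors, who made stranded poly(A) libraries. The submitters' processing notes list STAR 2.4.0f1 and the build GRCm38 (mm10). Its 638144 rows have 64 cells under 67 header names, so columns were read by row position, and each coordinate and strand was used once. The 48 other per-library columns were not used. Counts of junctions annotated in GENCODE were summed by gene. In R 4.3.3, edgeR 4.0.16 (filterByExpr, TMM, glmQLFit and glmQLFTest, diffSpliceDGE) was fitted on the 8 libraries of the table, tissue included, with a threshold of 0.05 after Benjamini-Hochberg adjustment. limma 3.58.1 and DESeq2 1.42.0 were alternatives. On simulated data the tests recovered 97% of 2-fold and 80% of 1.5-fold changed genes (15626 genes, 8 false calls) and 74% and 14% of changed junctions (158031 junctions, 0 false calls). Changes were planted only in well-read genes and junctions, and junction counts were drawn with the spread of the gene fit. The median NMD-only and unannotated junctions had 16.5 and 9 reads in control. Recovery at that depth was not tested, and false calls of junctions may differ in the data. Named genes were the 10 largest changes each way at a mean log2 CPM of at least 3, and in each list the called members with the smallest p (up to 3, and 1 each way) and the median member. Named junctions were the 15 largest changes each way with a mean of at least 20 reads in 1 group, and called 2-fold changes in splicing, decay and neuronal lists. Coding and stop-bearing exons shown by sequence were picked by p. Members and lists were chosen with earlier results of these data known. Some named genes are not reported here.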

Additional observations from a re-analysis of the deposited data

How the results depend on the processing

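No paired analysis was possible because the columns carry no replicate letter. Counts of genes called moved by over 1.5 times under scaling alone: with library size 3002 were higher (30.5% of calls, 47.4% by TMM), and scaled to ribosomal protein genes 1104 were higher and 9597 lower (10.3%). DESeq2, other filters, other junction sums and the 4 culture libraries alone gave 3787 to 5010 higher and 3999 to 5315 lower, and leaving out 1 library gave 8439 to 8701 calls (4025 to 4127 higher, 4414 to 4589 lower). Of junctions, 2047 were called among annotated ones alone (1144 gained), where fewer were tested, and 1592 to 1771 without 1 library (1085 to 1277 gained, 444 to 577 lost). limma gave 2257 and 1410. Shares of junction classes at a mean of 20 reads or more, and the narrow inclusion of exons, were chosen after seeing the data.

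Scaled to ribosomal protein genes, 9 named genes changed sign: Aldoc (-0.24), Nr4a3 (-0.33), Per1 (-0.24), Ptbp2 (-0.11), Rfc2 (-0.16), Sox5 (-0.14), Srpk2 (-0.15), Srsf11 (-0.25) and Supt5 (-0.13). Among named junctions none reversed. Without 1 library, 5 to 10 of them lost their call. Junctions with few reads in control limit the size of their change, and 2 libraries a group limit every test.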
